A study of Mus musculus with 8 samples.

Results

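Translation initiation factors are the proteins that bring a ribosome to the start codon of an mRNA. Their genes were taken from a table of 19688 genes measured in mouse blastocysts: 62 gene names began with Eif1 to Eif6, and 53 of them were kept. The other 9 were 7 names marked as pseudogenes and the sex-linked pair Eif2s3x and Eif2s3y. The rule used names only and no measured value, but the family was chosen with earlier results of these data known. The libraries came from 3 groups of blastocysts. Fresh blastocysts that were never vitrified formed the control group (2 libraries), and their sample titles read IVF. The vitrified group (3 libraries) was cooled to a glass-like state with no melatonin added and then thawed. The melatonin group (3 libraries) went through the same procedure with 1e-10 M melatonin, a hormone with antioxidant action, in the media used for vitrification and for thawing. The vitrified and melatonin groups are together called cryopreserved. The strain, the age of the donors and the number of embryos in a library were not given in the sources used here, so p-values measure the spread between these libraries, which may be partly technical.

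Initiation in mammalian cells starts when eIF2, bound to GTP and the initiator methionyl tRNA, joins eIF1, eIF1A, eIF3 and eIF5 on the small ribosomal subunit. The cap-binding protein eIF4E, the scaffold eIF4G and the helicase eIF4A load this complex at the 5′ end of the mRNA, and it scans to the start codon. The rate is set at a pair of points: stress kinases phosphorylate eIF2, which blocks its exchange factor eIF2B, and 4E-binding proteins hold eIF4E away from eIF4G until the kinase mTORC1 phosphorylates them. In the preimplantation embryo, growth of the blastocyst depends on new protein synthesis from its own mRNAs.

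Values are FPKM, fragment counts corrected for the length of the gene and the size of the library, so levels can be compared between genes per length. A fold change is the mean log2(FPKM + 1) of the first group named minus that of the second, given with its standard error (SE), and a difference was called at a Benjamini-Hochberg adjusted p below 0.05 from limma over all 10755 tested genes. The values corresponded to between 5813000 and 9847000 fragments per library, at which 1 FPKM of a transcript of 2 kb was 11.6 to 19.7 fragments. The tissue label was checked on markers. All 8 trophectoderm markers were found (summed FPKM 6620.1 to 11427.2 per library), while 1 of 6 cumulus cell markers was found, at 0 in 7 of the 8 libraries. Krt18 and Krt8 made up most of the trophectoderm sum. Within it, Gata3 was above and Elf5 below both fresh libraries in every cryopreserved library. The 6 epiblast markers summed to 27.5 and 72.4 FPKM in the fresh libraries, 137.2 to 174.8 in the vitrified and 135.2 to 153.4 in the melatonin libraries. The single markers differed in this. The melatonin libraries were above both fresh ones for Nanog, Tdgf1 and Fgf4 and overlapped them for Pou5f1, Sox2 and Klf2. The 6 primitive endoderm markers summed to 95.0 and 132.9 FPKM in the fresh, 137.6 to 190.3 in the vitrified and 103.6 to 161.6 in the melatonin libraries. The blood markers, 2 of 4 found, summed to 1.45 and 2.35, to 4.96 to 7.13 and to 2.57 to 3.90 FPKM in the same order. Most of the blood sum was Cd68 (1.45 to 5.78 FPKM), and Hba-a1 was at most 1.34 FPKM, so this sum does not show blood cells. The part of these differences between marker sums in the results was not tested. In whole blastocysts, fewer cells of a type and less RNA per cell cannot be told apart. Transcripts from the Y chromosome were absent from vitrified libraries 2 and 3 and present in the other 6.

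Some initiation factor transcripts have near copies elsewhere in the genome, and how the authors assigned reads shared by copies is not given in the sources used here. Eif4a-ps4, a processed pseudogene, matched the Eif4a1 transcript at 99.92% of 1218 aligned bases, with a single difference (G534A: the parent has G and the copy has A at base 534 of the copy's transcript). Eif5al3-ps matched Eif5a at 97.24% of 434 bases, with 12 mismatches. The stretches below hold the single difference of Eif4a-ps4 and 6 of the 12 mismatches of Eif5al3-ps, and capitals mark the differing bases. The parent stretches are coding, on the minus strand of mm10, at chr11:69668704-69669088 for Eif4a1 and chr11:69917684-69917932 for Eif5a, and each spans an intron. The copies lie on the plus strand at chr1:60704435-60704495 and chr5:90132483-90132543.
Eif4a1: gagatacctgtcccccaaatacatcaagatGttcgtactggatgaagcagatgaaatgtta
Eif4a-ps4: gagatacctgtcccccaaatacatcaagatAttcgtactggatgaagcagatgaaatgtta
Eif5a: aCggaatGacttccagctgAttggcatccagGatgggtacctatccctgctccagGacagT
Eif5al3-ps: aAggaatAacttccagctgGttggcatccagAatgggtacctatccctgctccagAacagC

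The deposited values gave most of the Eif4a1-like signal to the copy. Eif4a-ps4 was at 259.0 to 405.8 FPKM while Eif4a1 itself was at 13.7 to 23.8, and the ratio of copy to parent was 13.6 to 21.9 across the 8 libraries. Eif5al3-ps was at 159.1 to 381.1 FPKM, 0.233 to 0.356 times the level of Eif5a. Both ratios are of values per length. The copies are shorter than their parents (1218 against 4334 exonic bases and 447 against 2377), so the ratios in fragments would be smaller. Eif1-ps1 (95.83% identical to Eif1) reached 57.9 to 102.1 FPKM and Eif3s6-ps2 (95.96% identical to Eif3e) 46.0 to 73.4. The other 3 pseudogenes stayed at or below 1.86 FPKM. Among the members, Eif3j1 and Eif3j2 were 99.41% identical over 2379 bases. The values of Eif4a1, Eif3j1 and Eif3j2, and to a lesser degree Eif5a, Eif1 and Eif3e, are therefore uncertain as levels of a single gene.

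Of the 53 genes, 16 averaged 100 FPKM or more across the 8 libraries, 27 lay between 10 and 100, 6 between 1 and 10, and 4 below 1. The 2 most abundant, Eif4ebp1 and Eif5a, made up 27.0% of the summed mean level. The sum over all 53 genes was 7166.6 and 7318.5 FPKM in the fresh libraries, 5492.6, 5891.0 and 5820.5 in the vitrified, and 5805.3, 5991.2 and 6398.8 in the melatonin libraries. Both fresh libraries were thus above all 6 others, with group means of 7242.5 ± 107 (SD, n = 2), 5734.7 ± 213 (n = 3) and 6065.1 ± 304 (n = 3). The summed FPKM of all genes was also highest in fresh library 1, at 455879.7, against 370870.5 to 408788.4 in the other 7. As a share of that sum the 53 genes took 1.572% and 1.833% in the fresh libraries, 1.426%, 1.441% and 1.475% in the vitrified, and 1.565%, 1.581% and 1.618% in the melatonin libraries. On this scale the vitrified libraries were still the lowest, and the fresh and melatonin libraries overlapped. With Eif4ebp1 and Eif5a left out, the sums were 4646.3 and 4973.3, then 4362.9, 4421.6 and 4384.9, then 4322.2, 4665.8 and 4652.7, and the melatonin libraries overlapped the fresh ones. The 14 eIF3 genes alone summed to 2748.8 and 2857.4 FPKM in the fresh libraries, 2653.7, 2656.9 and 2635.4 in the vitrified, and 2423.8, 2722.7 and 2683.3 in the melatonin libraries. Both fresh libraries were again above all others, here by a narrow margin.

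**Figure D1:**
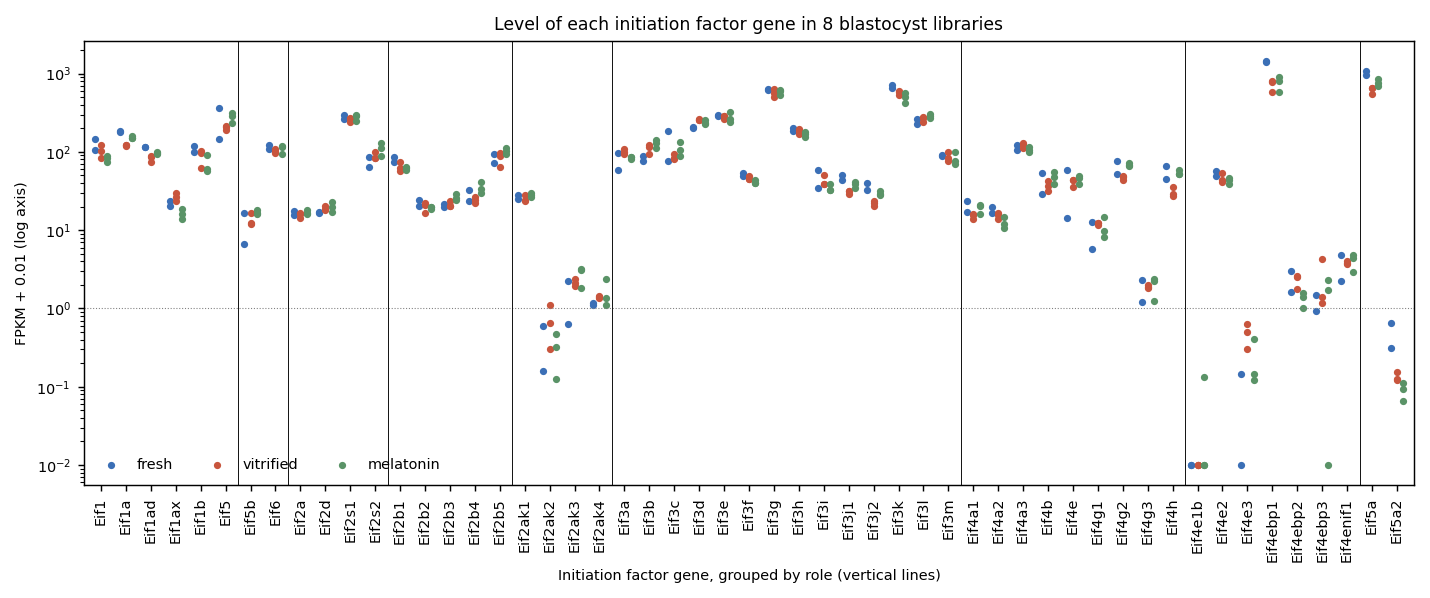
FPKM + 0.01 on a log axis for each of the 53 genes, grouped by role, with 1 point per library (blue fresh, red vitrified, green melatonin). Levels run from Eif4ebp1, at up to 1449.9 FPKM, to Eif4e1b, listed at 0 in 7 libraries, and in most genes the libraries of the 3 groups lie close together compared with the distances between genes.

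The first comparison asked how vitrified and thawed blastocysts differed from fresh ones. None of the 49 genes that passed the filter on low values was called, where limma called 0.865% of all tested genes (0.762% higher and 0.102% lower). Without adjustment, limma gave p below 0.05 for 8 of the 49 as lower after vitrification (16.3%, against 4.56% of all tested genes) and for 2 as higher (4.08%, against 15.6%). The 8 lower genes were Eif5a, Eif4ebp1, Eif1a, Eif4h, Eif3j2, Eif3j1, Eif1ad and Eif4g2, and the 2 higher ones were the eIF3 subunits Eif3d and Eif3b. All vitrified libraries lay below both fresh libraries for 11 of the 49 (22.4%, background 10.6%) and above both for 5 (10.2%, background 26.4%). The median fold change was -0.08 for the 49 genes and 0.14 for all tested genes. It was -0.28 against -0.01 after median ratio scaling of the libraries, which took the members with a fold change above 0 from 19 to 12 of 49 and all tested genes from 63.5% to 48.5%. Under that scaling 14 of the 49 genes (28.6%) were lower and 0 higher at an unadjusted p below 0.05, against 10.4% and 9.79% of all tested genes. Quantile normalization gave a smaller gap, with a median of -0.11 for the 49 genes and -0.02 for all tested genes, and 17 of 49 (34.7%) above 0 against 47.3%. At an unadjusted p below 0.05 it gave 8 lower (16.3%, against 8.22%) and 1 higher (2.04%, against 9.36%).

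The second comparison asked how adding melatonin during vitrification and thawing altered the profile of vitrified blastocysts. Again 0 of 49 genes were called by limma, beside 0.139% of all tested genes (0.0279% higher and 0.112% lower). At an unadjusted p below 0.05, 5 of 49 were higher with melatonin (10.2%, against 4.59% of all tested genes): Eif4h, Eif4g2, Eif1a, Eif3j2 and Eif2b4. A single gene, Eif1ax, was lower (2.04%, against 10.2%). The higher genes numbered 9 (18.4%, against 7.15%) after median ratio scaling and 8 (16.3%, against 7.85%) after quantile normalization, with 1 lower under each (against 7.36% and 8.15%). Libraries did not overlap for 11 genes higher with melatonin (22.4%, background 9.3%) and for 4 lower (8.16%, background 15.4%). The fold change was above 0 for 30 of 49 genes (61.2%, background 43.8%), and its median was 0.09 for the 49 genes and -0.05 for all tested genes.

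Melatonin-treated and fresh blastocysts were compared last, with 0 of 49 genes called and 0.0% of all tested genes called by limma. At an unadjusted p below 0.05, 7 of 49 were lower (14.3%, against 6.82%), namely Eif4ebp1, Eif1, Eif3k, Eif4a2, Eif5a, Eif1b and Eif1ax, and 2 were higher (4.08%, against 11.6%), namely Eif3b and Eif2s2. All melatonin libraries were below both fresh libraries for 17 of the 49 genes (34.7%, background 13.5%) and above both for 6 (12.2%, background 20.8%). The fold change was above 0 for 21 of 49 (42.9%, background 59.2%). The median was -0.08 for the 49 genes and 0.09 for all tested genes. These values depended on the scaling. After median ratio scaling 14 genes were lower (28.6%, against 9.8%) and 2 higher (4.08%, against 8.31%), with a median of -0.19. After quantile normalization 5 were lower (10.2%, against 8.15%) and 4 higher (8.16%, against 8.23%), 24 of 49 lay above 0 (against 50.1% of all tested genes), and the median was -0.015, beside 0.001 for all tested genes. With the title number as a block the median was 0.052. The 3 comparisons share libraries, so their values are given side by side and are not independent of each other.

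**Figure D2:**
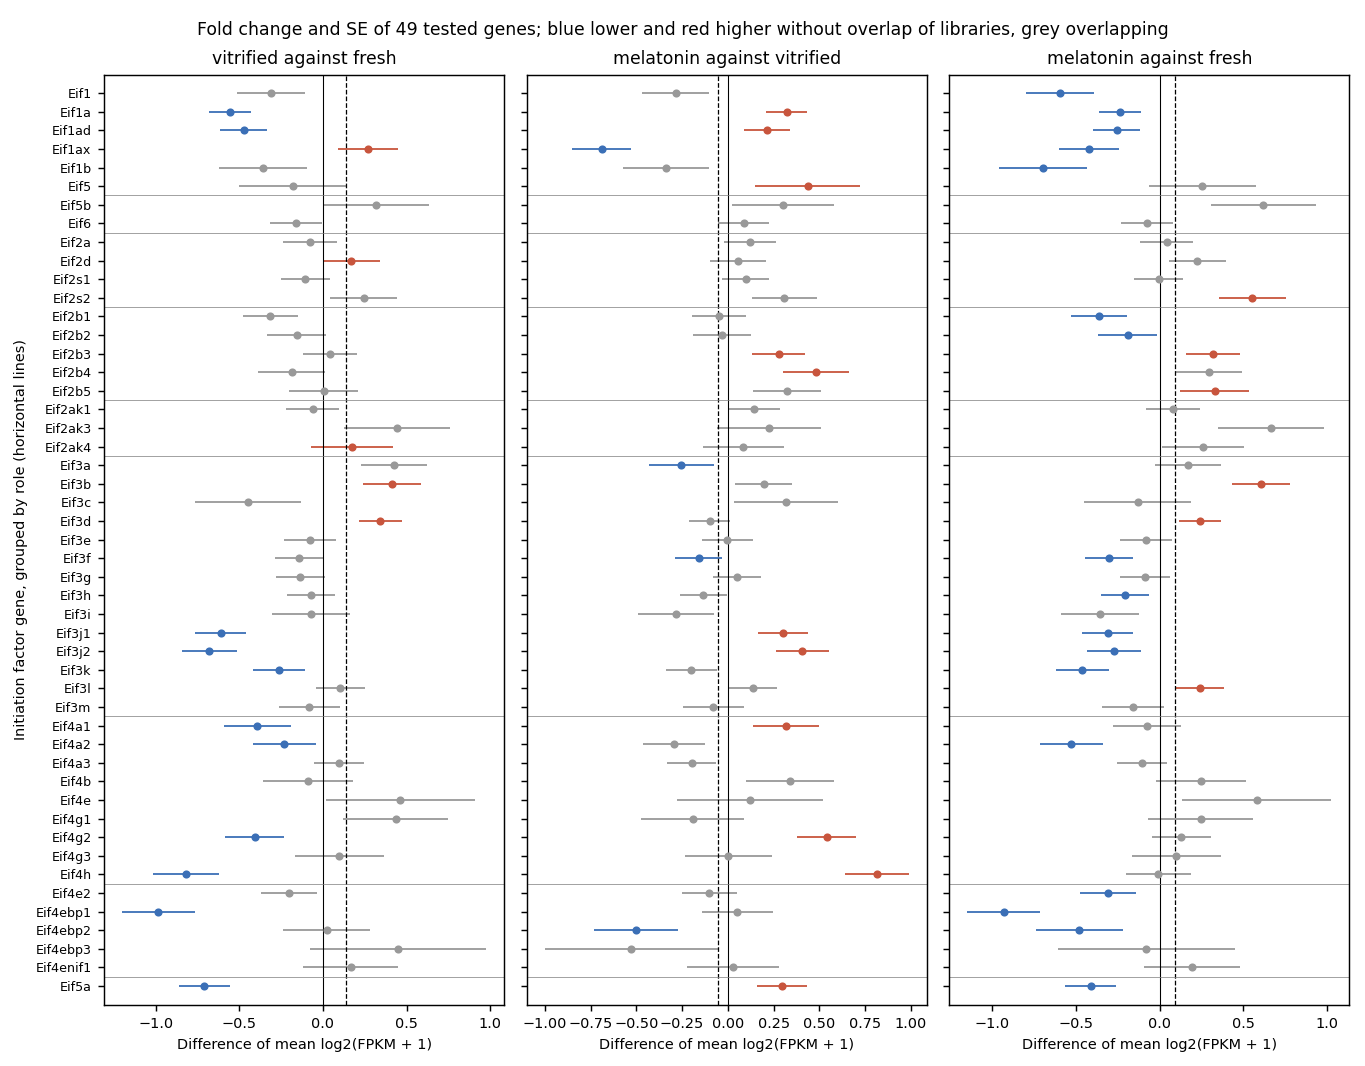
Fold change (difference of mean log2(FPKM + 1), points) with its SE (bars) for the 49 tested genes in the 3 comparisons, grouped by role. Blue points are genes whose libraries all lie lower, red all higher, and grey overlap; the dashed line is the median of all tested genes, 0.14, -0.05 and 0.09 from left to right.

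The group of factors that scan for and select the start codon was formed by gene name and held Eif1a, Eif1ax, Eif1, Eif1b, Eif1ad and Eif5. Eif1ad is in it by name only, and a role in scanning is not implied. Eif1a encodes a form of eIF1A, which holds the scanning complex open. It is on chromosome 18 and was at 184.9 and 177.1 FPKM in the fresh libraries, 123.5, 123.7 and 120.5 in the vitrified, and 150.7, 158.9 and 150.6 in the melatonin libraries. The 3 groups did not overlap, and the melatonin libraries lay between the other groups. Its fold change was -0.56 ± 0.13 for vitrified against fresh (limma, adjusted p = 0.0607), 0.32 ± 0.11 for melatonin against vitrified (adjusted p = 0.251) and -0.24 ± 0.13 for melatonin against fresh (adjusted p = 0.346).

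Eif1ax, the X-linked gene for eIF1A (chrX:159372178-159389928), was ordered differently. It was at 23.2 and 20.4 FPKM in the fresh libraries, 23.7, 29.6 and 26.3 in the vitrified, and 14.0, 18.3 and 16.0 in the melatonin libraries, so the melatonin group was the lowest and the vitrified group the highest. The fold change of melatonin against vitrified was -0.69 ± 0.16 (limma, adjusted p = 0.133) and that of vitrified against fresh 0.27 ± 0.18 (adjusted p = 0.435). The highest values came from vitrified libraries 2 and 3, which lacked Y-linked transcripts. With presence of Y-linked transcripts as a covariate the fold changes were -0.54 and 0.12 in the same order. The only libraries without Y-linked transcripts were vitrified, so these values rest on vitrified library 1 alone within that group. Embryo sex and differences between libraries cannot be told apart here. The Eif1a and Eif1ax transcripts were 85.75% identical over 435 aligned bases.

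Eif1ad, an eIF1A domain protein (chr19:5366741-5371526), had 114.3 and 116.7 FPKM in the fresh libraries, 74.3, 88.9 and 86.2 in the vitrified, and 95.5, 93.1 and 100.9 in the melatonin libraries. As for Eif1a, no library of a group reached the range of another. The fold change was -0.47 ± 0.14 for vitrified against fresh (limma, adjusted p = 0.109) and 0.22 ± 0.13 for melatonin against vitrified (adjusted p = 0.445). Eif1, whose product enforces the choice of the start codon (chr11:100319885-100322096), was at 146.8 and 106.2 FPKM in the fresh libraries, 82.6, 121.6 and 101.3 in the vitrified, and 75.1, 84.2 and 88.2 in the melatonin libraries. The melatonin group lay below the fresh one without overlap, by -0.60 ± 0.20 (limma, adjusted p = 0.188), which was -0.37 without fresh library 1. Its pseudogene Eif1-ps1 gave -0.59 ± 0.20 in the same comparison (adjusted p = 0.190).

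Eif5 activates GTP hydrolysis by eIF2 and had the highest mean level of the scanning factors (chr12:111538016-111546752). The fresh libraries differed most, at 144.8 and 364.6 FPKM, and the range of the other groups, 188.1 to 215.1 in the vitrified and 231.2 to 309.5 in the melatonin libraries, lay between them. Eif5b, the GTPase that joins the large subunit, also differed between the fresh libraries (6.64 and 16.6 FPKM) and was at 12.0 to 16.6 in the vitrified and 16.0 to 17.9 in the melatonin group. Eif6, which keeps the subunits apart, was steadier. Its fresh libraries were at 107.3 and 121.6 FPKM, the vitrified at 103.1, 95.8 and 107.5, and the melatonin libraries at 118.2, 93.5 and 115.4.

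For the 4 initiator tRNA carriers, fold changes lay between -0.11 and 0.25 for vitrified against fresh and between 0.06 and 0.31 for melatonin against vitrified. Eif2s1, the alpha subunit of eIF2 and the target of the stress kinases (chr12:78861819-78887010), was at 296.9 and 259.4 FPKM in the fresh libraries, 272.6, 260.2 and 242.3 in the vitrified, and 247.5, 294.5 and 289.3 in the melatonin libraries. Its fold change for vitrified against fresh was -0.11, with a 95% interval of -0.43 to 0.22. Eif2s2, the beta subunit (chr2:154871410-154892935), had 63.8 and 85.4 FPKM in the fresh libraries, 82.5, 98.6 and 83.0 in the vitrified, and 89.3, 129.6 and 111.7 in the melatonin libraries. The melatonin group lay above the fresh group by 0.55 ± 0.20 (limma, adjusted p = 0.205), or 0.35 without fresh library 1, and overlapped the vitrified group.

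The 5 subunits of eIF2B, the exchange factor of eIF2, had fold changes of -0.32 to 0.04 for vitrified against fresh and -0.05 to 0.48 for melatonin against vitrified. Eif2b4, its delta subunit (chr5:31187558-31193430), was at 23.7 and 32.5 FPKM in the fresh libraries, 26.7, 21.97 and 24.5 in the vitrified, and 29.6, 40.9 and 33.4 in the melatonin libraries. All 3 melatonin libraries exceeded the vitrified ones (0.48 ± 0.18, limma adjusted p = 0.271), and they overlapped the fresh ones. Eif2b5, the catalytic epsilon subunit and the most abundant of the 5, was at 71.5 and 93.2, then 96.8, 63.8 and 88.9, then 113.5, 93.6 and 102.2 FPKM. Its melatonin libraries were above the fresh ones by a narrow margin.

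Of the eIF2 kinases, the heme-regulated Eif2ak1 had the highest level. It was at 24.7 and 28.4 FPKM in the fresh libraries, 27.9, 24.6 and 23.8 in the vitrified, and 26.1, 30.2 and 28.2 in the melatonin libraries, with all groups overlapping. Eif2ak3 (PERK, the kinase of the endoplasmic reticulum) and Eif2ak4 (GCN2, which senses uncharged tRNA) reached at most 3.16 and 2.36 FPKM. Eif2ak2 (PKR, activated by double-stranded RNA) was between 0.116 and 1.09 FPKM and did not pass the filter.

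The 14 genes of eIF3, the large scaffold on the small subunit, went in different directions. For vitrified against fresh, 4 had a fold change above 0 and 10 below, and the range was -0.68 to 0.43. Eif3g, an RNA-binding subunit, was the most abundant, at 620.4 and 630.6 FPKM in the fresh libraries, 563.7, 641.6 and 509.3 in the vitrified, and 538.2, 625.4 and 606.6 in the melatonin libraries, all overlapping. The next, Eif3k, a small peripheral subunit (chr7:28971372-28981864), was at 708.5 and 656.9, then 573.3, 528.6 and 605.2, then 422.8, 503.5 and 569.4 FPKM. Both fresh libraries were above all others, and melatonin against fresh was -0.46 ± 0.16 (limma, adjusted p = 0.189), or -0.17 with quantile normalization.

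Eif3j1 and Eif3j2 encode the loosely bound eIF3j subunit, which acts at the mRNA channel of the small subunit. Eif3j1 (chr2:122028546-122056598) was at 44.2 and 50.8 FPKM in the fresh libraries, 28.8, 31.9 and 31.4 in the vitrified, and 34.7, 38.7 and 41.1 in the melatonin libraries. Eif3j2, on chromosome 18, was at 32.1 and 39.97, then 22.3, 23.4 and 20.4, then 29.1, 28.1 and 31.4 FPKM. In both genes the groups did not overlap and the melatonin libraries were intermediate. Vitrified against fresh was -0.61 ± 0.15 for Eif3j1 (limma, adjusted p = 0.0736) and -0.68 ± 0.16 for Eif3j2 (adjusted p = 0.0681). Melatonin against vitrified was 0.30 ± 0.14 (adjusted p = 0.345) and 0.41 ± 0.15 (adjusted p = 0.256). Because the transcripts are nearly identical, these are not 2 independent measurements, and the sum of both genes was 76.3 and 90.8, then 51.2, 55.3 and 51.8, then 63.8, 66.8 and 72.5 FPKM. The exonic lengths differ (5830 and 2379 bases), so this sum of values per length is not a combined level.

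Eif3b and Eif3d stood on the other side. Eif3b, a core scaffold subunit (chr5:140419328-140443360), was at 77.0 and 88.5 FPKM in the fresh libraries, 123.5, 93.2 and 116.3 in the vitrified, and 140.5, 128.2 and 112.1 in the melatonin libraries. Both cryopreserved groups were above the fresh one, by 0.41 ± 0.17 (limma, adjusted p = 0.223) and 0.61 ± 0.17 (adjusted p = 0.154). Eif3d, a subunit that can bind the mRNA cap (chr15:77958998-77970813), was at 201.0 and 205.2, then 252.1, 254.7 and 266.5, then 229.4, 236.2 and 256.1 FPKM. Vitrified against fresh was 0.34 ± 0.13 (limma, adjusted p = 0.178), and every cryopreserved library exceeded both fresh ones.

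**Figure D3:**
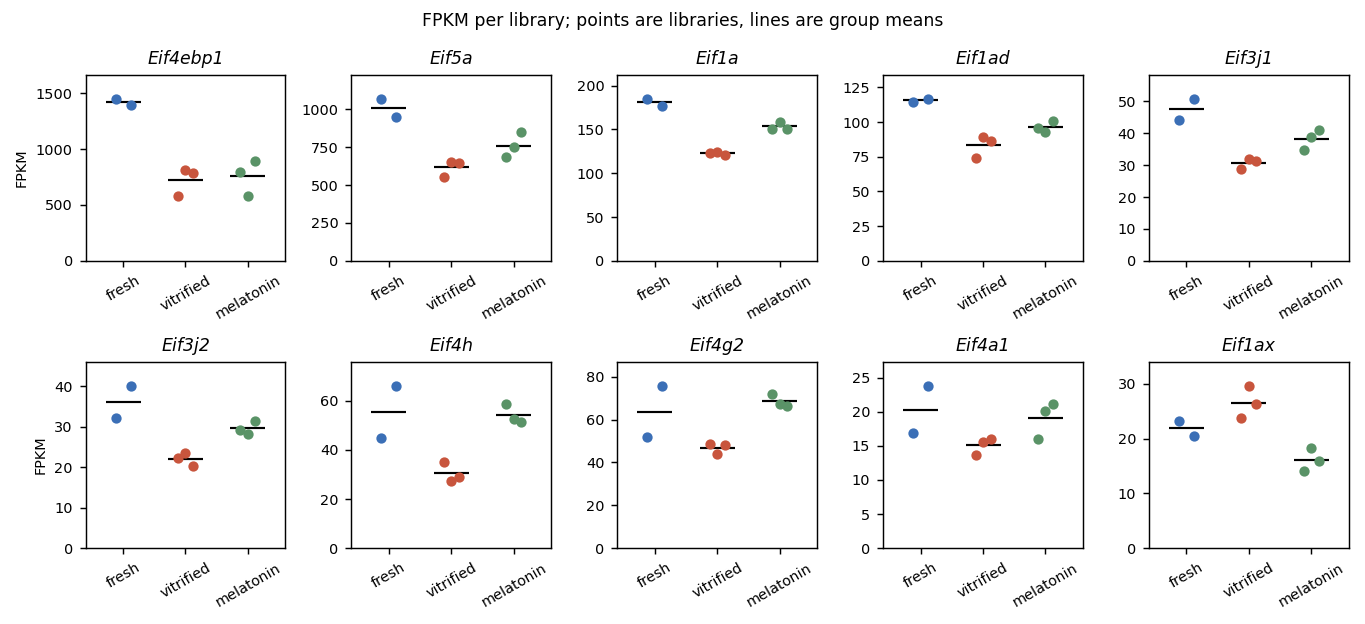
FPKM (linear axis from 0) of 10 genes in each library, with points for libraries and lines for group means. Eif4ebp1 and Eif5a are highest in the fresh group, Eif1a, Eif1ad, Eif3j1 and Eif3j2 have melatonin libraries between the other groups, Eif4h and Eif4g2 are lowest in the vitrified group, and Eif1ax is lowest in the melatonin group. All genes shown except Eif4ebp1 met the naming rule that libraries overlap in neither comparison of the vitrified group. The vitrified libraries enter both comparisons, so this choice partly fixes the order of the groups. How many of all tested genes share this order was not counted.

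Among the genes of the cap-binding complex and its helicase partners, Eif4h and Eif4g2 were low in the vitrified group alone. Eif4h, a cofactor that stimulates the eIF4A helicase (chr5:134619721-134639490), was at 44.9 and 66.0 FPKM in the fresh libraries, 35.1, 27.6 and 29.0 in the vitrified, and 58.6, 52.6 and 51.5 in the melatonin libraries. The vitrified libraries did not overlap either other group, and the melatonin libraries lay within the fresh range. Vitrified against fresh was -0.82 ± 0.20 (limma, adjusted p = 0.0681), melatonin against vitrified 0.81 ± 0.17 (adjusted p = 0.113), and melatonin against fresh -0.01, with a 95% interval of -0.45 to 0.43. Without fresh library 2 the first of these was -0.55 (adjusted p = 0.137).

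Eif4g2 encodes DAP5, a relative of eIF4G that does not bind eIF4E and serves cap-independent initiation (chr7:111067750-111083030). It was at 51.7 and 75.6 FPKM in the fresh libraries, 48.8, 43.9 and 47.9 in the vitrified, and 72.1, 67.1 and 66.5 in the melatonin libraries. Its vitrified libraries were the lowest. The fold change was -0.41 ± 0.18 for vitrified against fresh (limma, adjusted p = 0.239) and 0.54 ± 0.16 for melatonin against vitrified (adjusted p = 0.200), and the former was -0.14 without fresh library 2 and -0.68 without fresh library 1.

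The eIF4A helicases unwind the 5′ end of the mRNA. Eif4a1 (chr11:69666936-69672423) was at 16.9 and 23.8 FPKM in the fresh libraries, 13.7, 15.6 and 16.0 in the vitrified, and 16.1, 20.1 and 21.2 in the melatonin libraries, with fold changes of -0.39 ± 0.20 for vitrified against fresh (limma, adjusted p = 0.307) and 0.32 ± 0.18 for melatonin against vitrified (adjusted p = 0.434). The former was -0.16 without fresh library 2. Its vitrified libraries were lowest, but 15.98 and 16.06 FPKM were the nearest values of the vitrified and melatonin groups. Its pseudogene Eif4a-ps4, which held most of the signal, gave -0.25 ± 0.16 and 0.37 ± 0.14 in the same comparisons (adjusted p = 0.421 and 0.282), and its fresh and vitrified libraries overlapped. Eif4a2, a close homologue of Eif4a1 (chr16:23107444-23114136), was at 16.7 and 19.5, then 13.9, 16.4 and 15.6, then 10.54, 11.9 and 14.6 FPKM. It was lowest with melatonin, by -0.53 ± 0.19 against fresh (limma, adjusted p = 0.203). Eif4a3, the helicase of the exon junction complex, was the most abundant of this group, at 123.0 and 105.1, then 111.2, 130.7 and 123.1, then 98.3, 114.3 and 105.2 FPKM, and its groups overlapped in every comparison.

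The cap-binding protein gene Eif4e showed the widest spread between the fresh libraries, 58.9 and 14.4 FPKM, with all cryopreserved libraries (35.4 to 48.96 FPKM) between them. The scaffold gene Eif4g1 was at 5.79 and 12.8 FPKM in the fresh libraries and 8.17 to 14.6 in the others. Its relative Eif4g3 was at 1.199 to 2.37 FPKM. For these genes a difference between groups was not detectable above the spread of the fresh pair.

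The inhibitors of eIF4E held the most abundant gene of the family. Eif4ebp1, which encodes the 4E-binding protein controlled by mTORC1 (chr8:27260329-27276674), was at 1449.9 and 1394.9 FPKM in the fresh libraries, 578.8, 815.2 and 786.2 in the vitrified, and 799.0, 576.2 and 897.2 in the melatonin libraries. Both fresh libraries were far above the other 6, and the cryopreserved groups overlapped. Means were 1422.0 ± 38.9, 726.7 ± 129 and 757.5 ± 164 FPKM (SD, n = 2, 3 and 3), and the vitrified mean was 0.511 times the fresh mean. Vitrified against fresh was -0.98 ± 0.22 (limma, adjusted p = 0.0588), melatonin against fresh -0.93 ± 0.22 (adjusted p = 0.135), and melatonin against vitrified 0.05, with a 95% interval of -0.38 to 0.49. Over the 18 alternative analyses, vitrified against fresh ranged from -1.37 to -0.83 with adjusted p from 0.0526 to 0.165. The other 4E-binding protein genes, Eif4ebp2 and Eif4ebp3, were at 1.01 to 2.98 and 0 to 4.21 FPKM. Eif4e2, an eIF4E homologue that represses translation, was at 38.8 to 57.4 FPKM. The homologues Eif4e1b, known from oocytes and listed at 0 in 7 of 8 libraries, and Eif4e3, at up to 0.623 FPKM, did not pass the filter.

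Eif5a, the second most abundant gene (chr11:69916714-69921958), encodes a factor that carries the amino acid hypusine and relieves stalled ribosomes. It was at 1070.4 and 950.2 FPKM in the fresh libraries, 550.9, 654.2 and 649.3 in the vitrified, and 684.1, 749.2 and 848.9 in the melatonin libraries. The 3 groups did not overlap, and the melatonin libraries were intermediate. Vitrified against fresh was -0.71 ± 0.15 (limma, adjusted p = 0.0578, range over the alternatives 0.0517 to 0.177), melatonin against vitrified 0.30 ± 0.14 (adjusted p = 0.351) and melatonin against fresh -0.41 ± 0.15 (adjusted p = 0.213). Its pseudogene Eif5al3-ps gave -0.58 ± 0.23, -0.11 ± 0.21 and -0.69 ± 0.23 in the same order (adjusted p = 0.207, 0.831 and 0.186). The sum of Eif5a and the copy was 1451.5 and 1188.0 FPKM in the fresh libraries, 713.7, 886.4 and 865.9 in the vitrified, and 843.1, 950.1 and 1050.6 in the melatonin libraries. In this sum the fresh libraries remained above all others, while the melatonin and vitrified libraries overlapped. FPKM is per length, and the copy has 447 exonic bases against 2377 for Eif5a. The sum therefore weights fragments of the copy more than fragments of Eif5a and is not a combined level. The overlap is stated for this sum only. The paralogue Eif5a2 was at 0.298 and 0.650 FPKM in the fresh libraries and at most 0.145 in the others, too low to pass the filter.

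The promoter windows of 41 of the 53 genes were found in RefSeq on GRCm38.p6, and 5 motifs were searched on both strands, chosen after the values had been seen. The E-box CACGTG, a site bound by MYC and related factors, was present in at least 1 window of 10 of the 41 genes (24.4%, against 8.09% of all 27025 genes). The motif CCGGAAG, bound by ETS factors, was in 16 (39.0%, against 9.93%). TGATGNAA, bound by dimers of C/EBP proteins with ATF4, was in 0 of 41 (4.51% of all genes), TGACGTCA, the cAMP response element, in 0 (2.03%), and GCCACGTG, which overlaps the E-box, in 2 (4.88%, against 1.4%). The 27025 genes were not limited to genes expressed in these libraries, while most of the 41 passed the filter on low values. The shares are thus not matched for expression and do not show a trait of initiation factors. A match is a run of letters and does not show binding. Of the 9 tested genes with an E-box in a window, 6 had a fold change below 0 for vitrified against fresh, as did 16 of 30 without. The E-box genes Eif4e, Eif4g1 and Eif3a went the other way, at 0.462, 0.436 and 0.425. A link between the E-box and the levels was not tested. The E-box stretches of Eif5a, Eif3k and Eif4a1 are shown because all vitrified libraries of these genes were below both fresh ones. Eif4h is the fourth tested gene with an E-box and this order, and its stretch is left out because it overlaps an annotated exon. These are 4 of the 9 genes, with 0 in the opposite order. Of the 30 genes without an E-box, 3 were lower and 5 higher in this way, beside 10.6% and 26.4% of all tested genes. The stretches were chosen by this order, so they cannot show a link. The stretches lie on the minus strand at chr11:69921418-69921497, chr7:28981890-28981969 and chr11:69672570-69672649, with the E-box in capitals.
Eif5a: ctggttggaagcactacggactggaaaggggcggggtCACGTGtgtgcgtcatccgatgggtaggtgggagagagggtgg
Eif3k: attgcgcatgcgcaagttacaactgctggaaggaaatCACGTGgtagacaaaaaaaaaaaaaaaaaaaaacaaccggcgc
Eif4a1: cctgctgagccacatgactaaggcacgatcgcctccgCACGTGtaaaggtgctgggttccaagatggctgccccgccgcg

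Genes that act around initiation were taken from a list of 47, of which 46 were found and 45 tested. The list covers poly(A)-binding and cap-side regulators, mTORC1, control of eIF2 phosphorylation, small subunit helpers, elongation and termination. For vitrified against fresh 1 was called (2.22%, against 0.865% of all tested genes), as lower (background 0.102%), and 0 as higher. In the other 2 comparisons 0 were called (background 0.139% and 0.0%). At an unadjusted p below 0.05, limma gave 3 higher and 3 lower for vitrified against fresh (6.67% each, against 15.6% and 4.56% of all tested genes). For melatonin against vitrified it gave 4 higher (8.89%, against 4.59%) and 3 lower (6.67%, against 10.2%), and for melatonin against fresh 4 higher (8.89%, against 11.6%) and 2 lower (4.44%, against 6.82%). The medians were -0.06, 0.10 and -0.01, beside 0.14, -0.05 and 0.09 for all tested genes. The called gene was Atf4, the transcription factor translated when eIF2 is phosphorylated, at 141.5 and 157.6 FPKM in the fresh libraries, 72.6, 78.5 and 74.0 in the vitrified, and 121.0, 81.3 and 111.3 in the melatonin libraries. It fell by 0.98 ± 0.18 on the log2 scale after vitrification (limma, adjusted p = 0.0477), and this call was lost in 15 of the 18 alternatives. Among left-out libraries it was kept without melatonin library 2 (adjusted p = 0.0484) and lost without any other single library (0.0555 to 0.148). Melatonin against vitrified was 0.45 ± 0.16 (adjusted p = 0.258).

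Pdcd4, whose product binds and inhibits eIF4A, had the largest difference on this list without being called. It was at 5.41 and 3.73 FPKM in the fresh libraries, 21.3, 28.4 and 38.3 in the vitrified, and 4.98, 24.0 and 10.8 in the melatonin libraries. Vitrified against fresh was 2.42 ± 0.50 (limma, adjusted p = 0.0547) and melatonin against vitrified -1.29 ± 0.45 (adjusted p = 0.244), or -0.79 without melatonin library 1, and melatonin libraries overlapped both other groups. Larp4, a poly(A)-binding protein partner, had means of 9.61 ± 2.31, 17.2 ± 2.08 and 16.2 ± 1.02 FPKM (SD, n = 2, 3 and 3), with both cryopreserved groups above the fresh one, by 0.79 ± 0.19 (limma, adjusted p = 0.0725) and 0.71 ± 0.19 (adjusted p = 0.148). Eef1e1, a subunit of the tRNA synthetase complex, had means of 390.9 ± 16.6, 256.6 ± 16.5 and 298.9 ± 25.3 FPKM, and vitrified against fresh was -0.61 ± 0.14 (limma, adjusted p = 0.0609). Abce1, which recycles ribosomes, was higher with melatonin in every library, with means of 90.5 ± 1.27, 87.8 ± 10.2 and 115.4 ± 5.57 FPKM (0.40 ± 0.13 against vitrified, limma adjusted p = 0.236).

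The fresh group rests on 2 libraries that differed for several members. Fresh library 1 was below fresh library 2 for 15 of the 22 tested members with an exonic length of at least 5000 bases (68.2%, median log2 difference -0.21) and for 13 of the 27 shorter ones (48.1%, median 0.05). Among all tested genes 59.8% were lower in fresh library 1, with a median of -0.13, and the split by length was chosen after the values were seen. All tested genes were not split by length, so these shares do not show a length pattern particular to the family. Fresh library 2 had the fewest estimated fragments and fresh library 1 the most. Besides Eif4e, Eif5 and Eif5b, the pair differed for Eif3c (75.6 and 183.2 FPKM) and Eif4g1. Without fresh library 2, Eif3a was called higher in vitrified blastocysts, and Eif5 and Eif5b higher in melatonin-treated ones, while the calls among all tested genes numbered 433 in place of 93 and 565 in place of 0.

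**Figure D4:**
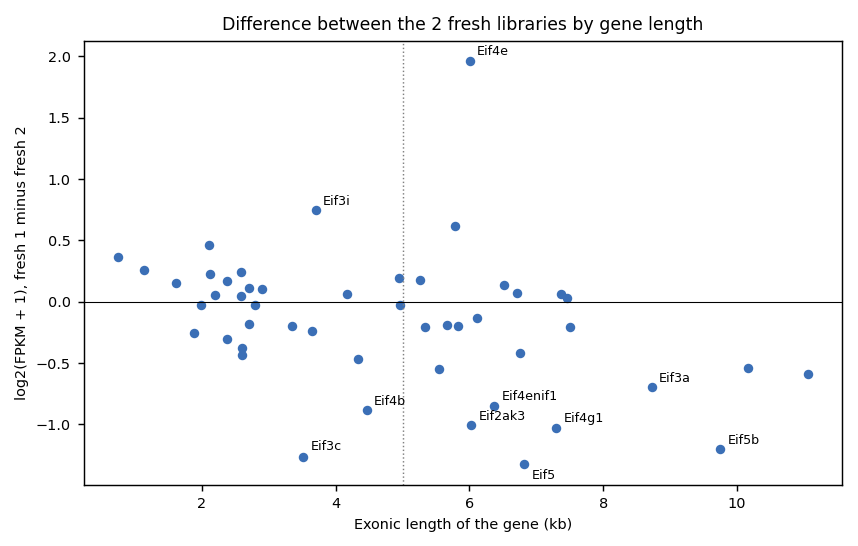
Difference in log2(FPKM + 1) between fresh library 1 and fresh library 2 (vertical axis) against exonic length in kb (horizontal axis), with 1 point per tested gene and the dotted line at 5 kb. Members beyond the line lie mostly below 0 (15 of 22, 68.2%, beside 59.8% of all tested genes of any length), and Eif4e, the highest point, is the largest exception.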

How the data were processed

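RNA of 8 mouse blastocyst libraries was analysed from the single table the authors deposited, which holds FPKM per gene and library on genome build mm10, per the submitters' processing notes. For the aligner, counting tool, annotation, strand setting and handling of reads shared by copies, the sources used here give nothing. The series text names Smart-seq2 (for small RNA inputs), while the labels' protocols describe bulk extraction, poly(A) selection and stranded libraries. Groups and replicate numbers come from the biosample descriptions. Depth was estimated from the steps between low FPKM values, of which 96.1% to 98.1% were whole numbers of fragments (tolerance 0.1, chance 20%).

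Differences were tested with limma 3.58.1 (R 4.3.3) on log2(FPKM + 1), with a variance trend and all 8 libraries in 1 model. A gene was tested if 2 or more libraries had at least 1 FPKM (10755 of 19688). P-values are two-sided and adjusted over all tested genes, and the script was tested on simulated data. Gene positions and transcript copies come from GENCODE release M21 (19553 genes matched by identifier), and promoters from RefSeq. Python 3.11.15, pandas 2.3.3, numpy 2.4.6, scipy 1.17.1 and matplotlib 3.10.9 were used.

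The members and lists were chosen with earlier results of these data known. Named members are the 6 with the smallest p in each comparison, the most abundant of each role, and those whose libraries overlapped in neither comparison of the vitrified group. Because both comparisons share the vitrified libraries, the last rule partly fixes the order of the groups in the genes it names. From the related genes, called ones, the 3 with the smallest p and Atf4 are named. Other genes are named by count, range or for the spread of the fresh libraries. Alternatives changed the scaling, filter, pseudocount, variance trend, samples, replicate block, embryo sex term and libraries.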

Additional observations from a re-analysis of the deposited data

How the results depend on the processing

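The number of members called stayed at 0 in each comparison under all alternatives except without fresh replicate 2, where it was 1 for vitrified against fresh and 2 for melatonin against fresh (range over left-out libraries 0 to 1 and 0 to 2, and 0 to 0 for melatonin against vitrified). None of the 35 gene results tracked turned its direction in 630 values over 18 alternatives, but part of this was fixed in advance. The variance trend, the filter, a fit of 2 groups and loss of a library outside the comparison cannot change a fold change. Most tracked genes were also named for small p-values or non-overlapping libraries in these data. Pdcd4 for vitrified against fresh newly passed the threshold without melatonin replicate 1 (limma, adjusted p = 0.0479) and without melatonin replicate 2 (0.0484). Larp4 for melatonin against fresh did so without fresh replicate 2, a fit with 1 fresh library.

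The related genes called for vitrified against fresh went from 1 to 0 without a variance trend, with median ratio scaling, quantile normalization, no filter, the embryo sex covariate, a fit of only the 2 groups compared, and either replicate block, and ranged from 0 to 2 over left-out libraries. The genes called or lost were Atf4, Pdcd4 and Larp4. For melatonin against fresh the range was 0 to 3 (Eefsec, Larp4 and Mlst8 without fresh replicate 2). The median fold change of the members for vitrified against fresh, -0.081, was -0.278 with median ratio scaling and -0.136 with a mean of at least 5 FPKM, and from -0.158 to -0.056 over left-out libraries. For melatonin against vitrified, 0.085 became 0.135 with quantile normalization. For melatonin against fresh, -0.075 became -0.193 with median ratio scaling, -0.015 with quantile normalization and 0.052 with the replicate block by title number, and ranged from -0.170 to -0.022 over left-out libraries. Median ratio scaling moved the median of all genes from 0.138 to -0.014. The cause of these shifts was not tested.

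Replicate numbers gave no clear sign of pairing: same-numbered libraries had correlations of deviations from -0.115 to 0.121. Deviations from the mean of so few libraries must cancel within a group, so this check cannot exclude pairing. With the replicate block by biosample number 0 members were called in each comparison, and 0 related genes were called for vitrified against fresh.

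With 2 fresh libraries, the fold changes against fresh rest on a pair that differed by up to 1.96 on the log2 scale for a member. Leaving out a fresh library leaves 1, which limma assumes to vary like the other groups. The embryo sex term likewise leaves vitrified library 1 alone behind the fold changes of the vitrified group. Counting error is small for the abundant genes and large below 1 FPKM.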

Other observations

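The sex-linked pair that was left out encodes the gamma subunit of eIF2. Eif2s3y was at 14.8 and 18.4 FPKM in the fresh libraries, 24.6 in vitrified library 1 and 22.2, 23.1 and 21.6 in the melatonin libraries, and it was listed at 0 in vitrified libraries 2 and 3. Eif2s3x was at 9.63 and 11.1 FPKM in the fresh libraries, 8.86, 15.2 and 16.3 in the vitrified, and 11.1, 11.1 and 12.0 in the melatonin libraries. The 2 libraries without Eif2s3y thus had the highest Eif2s3x.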
